A study of Mus musculus with 12 samples.

Results

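Transcript levels of 9 genes of the interferon receptor pathway were read in bulk RNA sequencing of 12 mouse tumours. They encode the type I receptor subunits (Ifnar1, Ifnar2), the type II receptor subunits (Ifngr1, Ifngr2), the receptor kinases (Jak1, Jak2, Tyk2), the transcription factor Stat2 and the inhibitor Socs1. They were chosen by gene symbol from a table of 24421 symbols, and all 9 passed the floor of a mean of 1 FPKM (fragments mapped to a gene, corrected for its length and for the size of the library). The tumours were of the murine model 425-ICC, which stands for cholangiocarcinoma, a bile duct cancer, arising inside the liver. They formed 4 groups of 3 samples, which were taken after 8 days of treatment. Control tumours had received IgG, GC tumours chemotherapy (which the labels only call GC, taken here to mean gemcitabine with cisplatin), ICB tumours antibodies against immune checkpoints (CTLA-4 and PD1 by the title of the series), and Combination tumours chemotherapy and blockade together. All groups carried the same tumour model, and the mouse strain, age, doses and the genotype of the model are not given in the sources used here. Whether each sample is its own animal is not stated, and the p-values therefore cover only sample-to-sample spread, which may be technical.

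Interferons alpha and beta bind a receptor of IFNAR1 and IFNAR2, to which the kinases TYK2 and JAK1 are attached. The activated receptor phosphorylates STAT2 and its partners, which with IRF9 bind the interferon-stimulated response element (ISRE) of target genes. Interferon gamma binds IFNGR1 and IFNGR2, which carry JAK1 and JAK2 and act mainly through gamma-activated sites (GAS) in DNA. SOCS1 is an induced inhibitor that binds the kinases and damps both routes. In tumours the pathway is known for controlling antigen presentation and the recruitment of lymphocytes, and nearly all cell types carry the receptors.

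The promoter sequences are shown for the 2 members, Stat2 and Socs1, that hold the letters of an ISRE core upstream of their start. The 250 bases before the RefSeq start site of each of the 9 genes (GRCm38.p6, 9 of 9 matched) were searched on both strands for GAAA, any 2 bases and GAAA again, the ISRE core, and for TTCNNNGAA, the GAS core, which reads the same on both strands. Capitals mark the ISRE core, and both sequences read 5′ to 3′ along the gene.
Stat2 (chr10:128270248-128270497, plus strand): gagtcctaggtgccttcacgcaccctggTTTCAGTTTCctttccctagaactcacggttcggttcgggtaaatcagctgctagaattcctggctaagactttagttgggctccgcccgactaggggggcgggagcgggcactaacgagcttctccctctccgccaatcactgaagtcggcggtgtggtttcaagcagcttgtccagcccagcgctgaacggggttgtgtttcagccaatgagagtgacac
Socs1 (chr16:10785537-10785786, minus strand): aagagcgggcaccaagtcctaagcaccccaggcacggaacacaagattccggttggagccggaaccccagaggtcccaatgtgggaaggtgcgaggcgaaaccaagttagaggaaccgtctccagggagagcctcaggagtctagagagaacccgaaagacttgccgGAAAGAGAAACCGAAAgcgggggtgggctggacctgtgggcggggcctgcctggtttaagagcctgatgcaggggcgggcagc
In Stat2 the match TTTCAGTTTC lies on the opposite strand, from 222 to 213 bases before the start. In Socs1 a pair of overlapping matches on the same strand, GAAAGAGAAA and GAAACCGAAA, spans 83 to 68 bases before the start. Of all 32851 RefSeq promoter windows of this length, 2.98% held the ISRE core and 7.02% the GAS core. The receptor and kinase genes held no ISRE core, and Ifnar2 alone among the 9 held a GAS core, TTCCTGGAA. These letter matches are descriptions of the reference genome and not measured binding.

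Libraries differed in tissue content, which bears on every value below. A list of 20 hepatocyte genes took at most 0.0152% of FPKM in Control, at most 1.14% in GC and at most 0.394% in ICB. Combination replicates 1, 2 and 3 gave it 1.11%, 19.1% and 7.94%. In Combination replicate 1 the highest genes of the list were Apoa1 (3721 FPKM), Fabp1 (2188 FPKM) and Apoc3 (315 FPKM). Alb stood at 217 FPKM there, and at 893 FPKM in GC replicate 3, where the list took 1.14%. Which tissue gave these transcripts was not tested. Combination replicate 1 also held small intestinal transcripts (15 genes, 0.9602% of FPKM, at most 0.11% elsewhere), and a skeletal muscle list was high in replicate 2 of Control and of GC (means of 6.52 and 8.07 on the log2 scale, at most 0.82 elsewhere). A list of 10 macrophage genes, none at 0 in any library, averaged 4.38, 6.46 and 6.55 on the log2 scale in Control replicates 1 to 3. GC libraries lay between 6.70 and 7.55 for it, ICB libraries between 5.74 and 6.56, and Combination libraries between 5.15 and 6.75. Markers of bile duct epithelium (10 genes) were uneven. Krt19 was listed at 0 in Control replicates 2 and 3 and at 18.2 FPKM in Control replicate 1. Its highest value was 48.3 FPKM, in Combination replicate 1. Epcam was also highest there, at 126.3 FPKM, and at most 5.799 FPKM in the other libraries. Cftr was listed at 0 in all Control and ICB libraries and reached at most 1.11 FPKM, in Combination replicate 1. The library highest for Krt19, Epcam and Cftr was thus the one with small intestinal transcripts. Which tissue gave these peaks was not tested. Krt7 was below Sox9 in every library. Sox9 stood between 7.56 and 91.9 FPKM and Spp1 between 275.7 and 7598 FPKM over the 12 libraries. T cell markers were low but uneven. Cd8a was at most 0.644 FPKM in any library, whereas Cd3d was listed at 0 in Control replicates 1 and 3 and reached 2.31 FPKM in GC replicate 2 and 4.55 FPKM in ICB replicate 3. The ribosomal RNA precursor Rn45s took 4.14% of FPKM in ICB replicate 2 and 1.42% in ICB replicate 3, and at most 0.689% in the other libraries. Libraries summed to between 547146 and 660067 FPKM, and their read depth is unknown, so counting error cannot be stated.

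The receptors for interferon gamma were the most abundant of the 9 transcripts and the kinase Jak2 the least. On the length-corrected FPKM scale, means over the 12 libraries ran from 84.1 for Ifngr2 through 47.8 for Ifngr1, 42.4 for Ifnar2, 19.9 for Jak1, 14.1 for Ifnar1, 12.9 for Socs1, 8.62 for Tyk2 and 7.04 for Stat2 to 6.25 for Jak2. Ifnar2 was above Jak1 in 12 of 12 libraries, Ifngr2 above Ifngr1 in 11 and Jak1 above Ifnar1 in 11. The order of Ifngr1 and Ifnar2 (7 of 12), of Ifnar1 and Socs1 (7 of 12), of Tyk2 and Stat2 (8 of 12) and of Stat2 and Jak2 (5 of 12) was not kept across libraries. As deposited, Ifnar2 and Jak1 were among the steadiest genes. The SD of log2(FPKM + 1) over the 12 libraries was 0.18 for Ifnar2 and 0.21 for Jak1, at percentiles 1.01 and 2.52 of 12765 tested genes, whose median SD was 0.49. After median-of-ratios scaling the percentiles were 23.8 for Ifnar2 and 42.9 for Jak1, so the steadiness depended on the scale of the libraries. Stat2 (0.72), Ifngr2 (0.695) and Socs1 (0.64) varied most, at percentiles 74.8, 73.0 and 68.1.

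**Figure D1:**
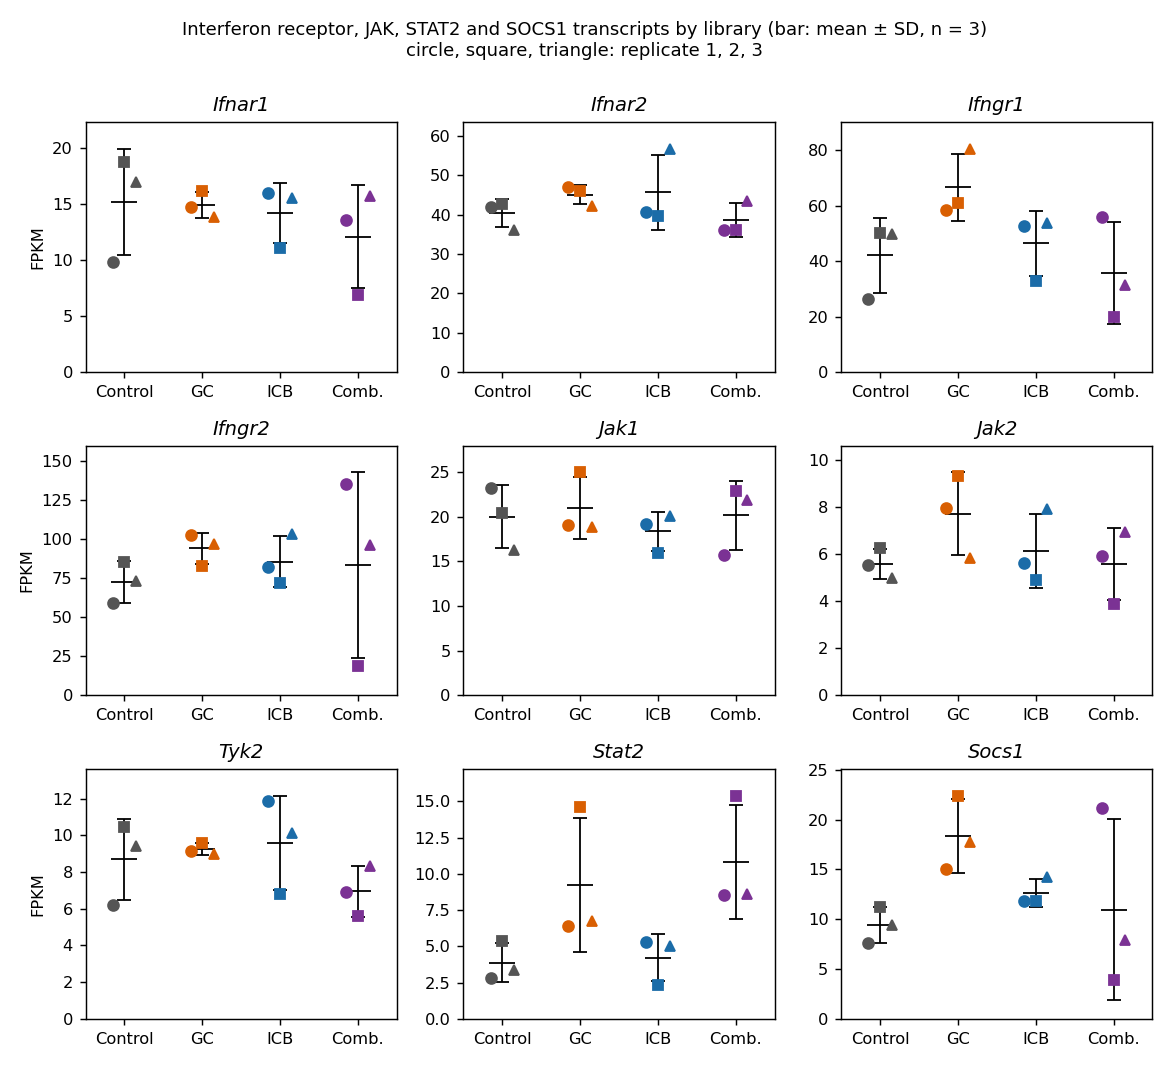
FPKM of the 9 genes in each library (y axis from 0) by treatment group (x axis), with replicate 1 as a circle, 2 as a square and 3 as a triangle, and bars for mean ± SD, n = 3. Stat2 lies at 6.39 FPKM or above in all GC and Combination libraries and at 5.39 FPKM or below in all Control and ICB libraries, whereas Ifnar2 and Jak1 as deposited differ at most 1.57-fold and 1.58-fold between libraries.

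None of the 9 genes passed the threshold in any comparison with Control. Each difference is given with its SE from a limma model of log2(FPKM + 1), where low transcripts appear to differ less than they do, with Benjamini-Hochberg adjusted p-values over 12765 genes and a threshold of 0.05. In GC against Control 0 of 9 members and 0.00783% of all tested genes passed, in ICB against Control 0 of 9 and 0% of genes, and in Combination against Control 0 of 9 and 3.95% of genes. At an unadjusted p under 0.05 the members counted 1 (9.86% of all genes), 0 (1.75%) and 1 (26.3%) in the same order, and the 1 was Stat2 in GC and in Combination. Between treated groups 0 of 9 passed in Combination against GC (0.666% of genes) and in Combination against ICB (2.24%), with 2 (Ifngr1 and Socs1, 16.5% of genes) and 1 (Stat2, 20.5%) at an unadjusted p under 0.05. The interaction of the treatments passed for 0 of 9 members (0.0157% of genes, with Socs1 and 8.09% of genes unadjusted), and a limma moderated F over the groups for 0 of 9 (1.83% of genes), with an unadjusted p of 0.01133 for Stat2. By direction, the genes called higher and lower were 3.55% and 0.400% in Combination against Control, 0.642% and 0.0235% in Combination against GC, and 2.05% and 0.188% in Combination against ICB. Groups that did not overlap were counted as well, with 3 members higher and 0 lower in GC against Control (18.6% and 9.29% of genes), 1 higher and 0 lower in ICB (4.65% and 4.67%) and 1 higher and 0 lower in Combination (9.74% and 13.2%). Against GC, 0 members were higher and 2 lower in Combination (4.16% and 14.2% of genes), and against ICB 1 was higher and 0 lower (9.47% and 10.1%). All 9 estimates were positive in GC against Control, with a median of 0.38 beside 0.09 over all tested genes, of which 58.1% were positive. The median was 0.12 in ICB against Control (all genes -0.06) and -0.06 in Combination against Control (all genes -0.29). Median-of-ratios scaling moved the median of all genes from -0.29 to -0.03 in Combination against Control and from -0.365 to -0.0433 in Combination against GC. It moved from -0.21 to -0.06 in Combination against ICB and from -0.06 to 0.05 in ICB against Control. Differences that involve Combination are therefore to be read against those medians. In bulk tumours fewer cells of a type and less RNA per cell cannot be told apart.

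**Figure D2:**
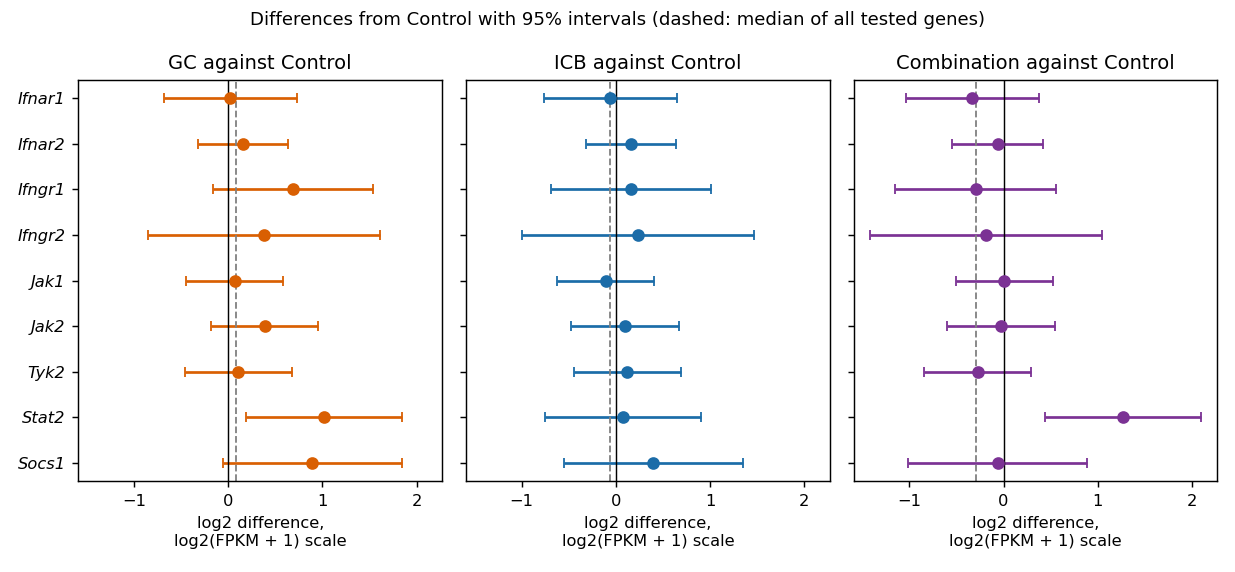
Log2 difference from Control (x axis, log2(FPKM + 1) scale) of each member (y axis) with its 95% interval in GC, ICB and Combination, and the median of all tested genes as a dashed line. The intervals of Stat2 lie above 0 for GC (0.19 to 1.85) and Combination (0.44 to 2.09), and none of the 27 differences passes after adjustment over all genes.

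The type I receptor subunits overlapped between Control and each treated group. Ifnar1, the subunit that carries TYK2 (chromosome 16, 91485238 to 91507441, plus strand, GRCm38, GENCODE M21), stood at 9.79, 18.8 and 16.9 FPKM in Control, at 14.7, 16.1 and 13.8 FPKM in GC, at 16.0, 11.1 and 15.5 FPKM in ICB, and at 13.6, 6.91 and 15.7 FPKM in Combination. The groups overlapped, and the lowest value was that of the liver-rich Combination replicate 2. Its difference was 0.02 ± 0.32 in GC, -0.06 ± 0.32 in ICB and -0.33 ± 0.32 in Combination (limma adjusted p = 0.9986, 1 and 0.498). Ifnar2, the high-affinity ligand-binding subunit (chromosome 16, 91372783 to 91405589, plus strand), stood at 42.1, 42.7 and 36.2 FPKM in Control, 47.02, 45.996 and 42.3 FPKM in GC, 40.8, 39.6 and 56.8 FPKM in ICB, and 36.1, 36.2 and 43.6 FPKM in Combination. All groups overlapped for Ifnar2 as well, with ICB replicate 3 standing highest. Its 95% interval for GC against Control, -0.32 to 0.64, and for Combination against Control, -0.54 to 0.42, leaves out a 2-fold difference in either direction. Il10rb, a subunit of the interferon lambda receptor that lies between Ifnar2 and Ifnar1 on the same strand (91406164 to 91425834), stood at 28.4 ± 7.37 FPKM in Control, 41.4 ± 9.46 in GC, 28.7 ± 8.04 in ICB and 26.8 ± 17.0 in Combination. An annotated gene that spans Ifnar2 and Il10rb, Gm21970, overlaps exons of Ifnar2 on the same strand, so reads there cannot be told apart. The ratio of Ifnar2 to Ifnar1 within a library ran from 2.14 to 5.23 and was highest in Combination replicate 2.

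The type II receptor subunits had higher means in GC than in Control, with overlapping libraries for Ifngr2 and no call for either, and were uneven in Combination. Ifngr1, the ligand-binding chain (chromosome 10, 19591949 to 19610229, plus strand), stood at 26.5, 50.3 and 49.7 FPKM in Control and at 58.6, 60.9 and 80.6 FPKM in GC. All 3 GC libraries were above all 3 Control libraries, an order that 18.6% of tested genes shared. The difference was 0.69 ± 0.39 (limma adjusted p = 0.6165). Ifngr1 stood at 52.6, 33.0 and 54.0 FPKM in ICB, which overlapped Control, and at 56.0, 20.02 and 31.3 FPKM in Combination, where all libraries were below all GC libraries, as for 14.2% of tested genes. Against GC the difference in Combination was -0.99 ± 0.39 (limma adjusted p = 0.2772), beside a median of -0.36 over all genes. Without Combination replicate 1 this difference was -1.36 and passed (limma adjusted p = 0.02355), in a fit where 23.6% of all genes passed. The macrophage list was lowest in Control replicate 1 and Combination replicates 2 and 3, and of the 12 libraries Ifngr1 was lowest in the same 3. The part of macrophage content in these values was not tested. Ifngr2, the chain that carries JAK2 (chromosome 16, 91547072 to 91565623, plus strand), stood at 59.2, 85.7 and 73.5 FPKM in Control, 102.7, 83.2 and 96.9 FPKM in GC, 82.1, 71.9 and 103.5 FPKM in ICB, and 135.6, 18.8 and 96.4 FPKM in Combination. Its highest and lowest values both came from Combination, from the intestine-rich replicate 1 and the liver-rich replicate 2. Means of Ifngr2 were 72.8 FPKM in Control, 94.3 in GC, 85.8 in ICB and 83.6 in Combination. Its difference in GC against Control was 0.38 ± 0.56 (limma adjusted p = 0.898). The difference in Combination against Control was -0.19 ± 0.56, with a 95% interval of -1.41 to 1.04, and 0.66 without replicate 2.

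The kinase genes, as deposited, overlapped between Control and each treated group, and after median-of-ratios scaling Jak1 stood at 38.7 FPKM in Combination replicate 2 and at 13.8 to 24.0 FPKM elsewhere. Jak1, which serves both receptors (chromosome 4, 101152367 to 101265282, minus strand), stood at 23.3, 20.5 and 16.3 FPKM in Control, 19.1, 25.0 and 18.9 FPKM in GC, 19.2, 15.9 and 20.1 FPKM in ICB, and 15.8, 22.9 and 21.9 FPKM in Combination. All groups overlapped, and the 95% interval was -0.45 to 0.59 for GC, -0.63 to 0.41 for ICB and -0.51 to 0.53 for Combination against Control. Jak2, the kinase of IFNGR2 (chromosome 19, 29251828 to 29313080, plus strand), stood at 5.55, 6.23 and 4.97 FPKM in Control and at 7.96, 9.32 and 5.85 FPKM in GC. GC replicate 3 fell within the Control range, and the difference was 0.39 ± 0.26 (limma adjusted p = 0.6907). In ICB Jak2 stood at 5.61, 4.89 and 7.90 FPKM and in Combination at 5.89, 3.895 and 6.93 FPKM, both overlapping Control. Tyk2, the kinase of IFNAR1 (chromosome 9, 21104068 to 21131243, minus strand), stood at 6.21, 10.5 and 9.41 FPKM in Control, 9.15, 9.597 and 9.01 FPKM in GC, 11.8, 6.78 and 10.1 FPKM in ICB, and 6.93, 5.59 and 8.34 FPKM in Combination. The Combination libraries were all below the GC libraries, by -0.38 ± 0.26 (limma adjusted p = 0.37), close to the median of -0.36 over all genes. An antisense gene, 1700084C06Rik, overlaps exons of Tyk2, and the last bases of Raver2 overlap those of Jak1 on the opposite strand, and whether counting used strand is not given in the sources used here. Within libraries Jak1 stood at 2.39 to 5.89 times the FPKM of Jak2 and at 1.62 to 4.10 times that of Tyk2, both highest in Combination replicate 2.

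Stat2 separated the tumours that had received chemotherapy from those that had not. Stat2, the type I interferon transcription factor whose promoter letters are shown above (chromosome 10, 128270559 to 128292849, plus strand), stood at 2.85, 5.39 and 3.36 FPKM in Control and 5.27, 2.34 and 5.02 FPKM in ICB. In GC it stood at 6.39, 14.6 and 6.75 FPKM and in Combination at 8.51, 15.4 and 8.62 FPKM. All 6 libraries with chemotherapy were above all 6 without it, an order that 2.75% of tested genes shared, and 1.30% held the opposite order. The difference was 1.02 ± 0.38 in GC against Control (limma adjusted p = 0.3876), 1.27 ± 0.38 in Combination against Control (adjusted p = 0.08276), 1.19 ± 0.38 in Combination against ICB (adjusted p = 0.121) and 0.08 ± 0.38 in ICB against Control (adjusted p = 1). Averaged over blockade, in a contrast added after the values were seen, Stat2 rose with chemotherapy by 1.10 ± 0.27, a fold of 2.15 on the log2(FPKM + 1) scale (limma adjusted p = 0.04765). Of all tested genes 3.36% passed in that contrast, 3.01% higher and 0.353% lower (384 and 45 genes, 278 and 108 under median-of-ratios scaling), and of the 9 members Stat2 alone, which was also the only member of the 22.3% of genes with an unadjusted p under 0.05. The call stood close to the threshold: it missed it without 11 of the 12 libraries, each left out in turn, with adjusted p from 0.02717 without Combination replicate 1, where it passed along with 13.6% of all genes, to 0.1205 without ICB replicate 2, while the difference stayed between 0.93 and 1.21. It also missed it under median-of-ratios scaling (adjusted p = 0.06102) and with the replicate number as a block (adjusted p = 0.06171). The interaction was 0.17 ± 0.53, with a 95% interval of -0.997 to 1.34. The hepatocyte list was higher in every GC, ICB and Combination library than in every Control library, and its part in the Stat2 values was not tested. With the mean of that list as a covariate the averaged difference was 1.03 (limma adjusted p = 0.2454). Because the list did not overlap between Control and the treated groups, that fit cannot fully separate liver content from treatment. ICB replicate 2, with the lowest Stat2, was also the library with the highest Rn45s, whose part in the result was not tested. In the libraries with the highest Stat2, GC replicate 2 and Combination replicate 2, the hepatocyte list mean was 4.52 and 10.7 on the log2 scale, and the macrophage list mean 7.55 and 5.15.

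Socs1 was high in GC and split in Combination. Socs1, the kinase inhibitor with the paired ISRE core letters (chromosome 16, 10782240 to 10785536, minus strand), stood at 7.66, 11.2 and 9.39 FPKM in Control, 15.04, 22.4 and 17.7 FPKM in GC, and 11.9, 11.8 and 14.3 FPKM in ICB. Both the GC and the ICB libraries were all above all Control libraries, an order shared by 18.6% and 4.65% of tested genes. In Combination it stood at 21.2 FPKM in replicate 1 and at 3.91 and 7.87 FPKM in replicates 2 and 3, replicate 1 within the GC range and replicates 2 and 3 below all other treated libraries. The difference was 0.89 ± 0.43 in GC against Control (limma adjusted p = 0.539), 0.40 ± 0.43 in ICB against Control (adjusted p = 1) and -0.06 ± 0.43 in Combination against Control (adjusted p = 0.9315). Combination against GC gave -0.96 ± 0.43 (limma adjusted p = 0.3017) and the interaction -1.35 ± 0.61 (adjusted p = 0.6085). Without the intestine-rich Combination replicate 1 these were -1.54 (limma adjusted p = 0.0074) and -1.93 (adjusted p = 0.02108), and Combination against ICB was -1.04 (adjusted p = 0.04195), in fits where 23.6%, 6.36% and 16.1% of all genes passed. Without Combination replicate 2 the first pair were -0.45 and -0.85 (adjusted p = 0.8877 and 0.8356). The 2 Combination libraries that remain are the liver-rich ones, and the part of liver content in these values was not tested by that step. When the mean of the hepatocyte list entered the fit as a covariate, GC against Control was 2.05 (limma adjusted p = 0.03685), and 3.6% of all genes passed. The list mean was at most 1.81 on the log2 scale in Control and at least 4.52 in GC. With no overlap, that fit cannot separate liver content from chemotherapy. The ratio of Stat2 to Socs1 ran from 0.198 to 0.651 in the 9 Control, GC and ICB libraries and was 0.402, 3.94 and 1.095 in Combination replicates 1, 2 and 3.

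**Figure D3:**
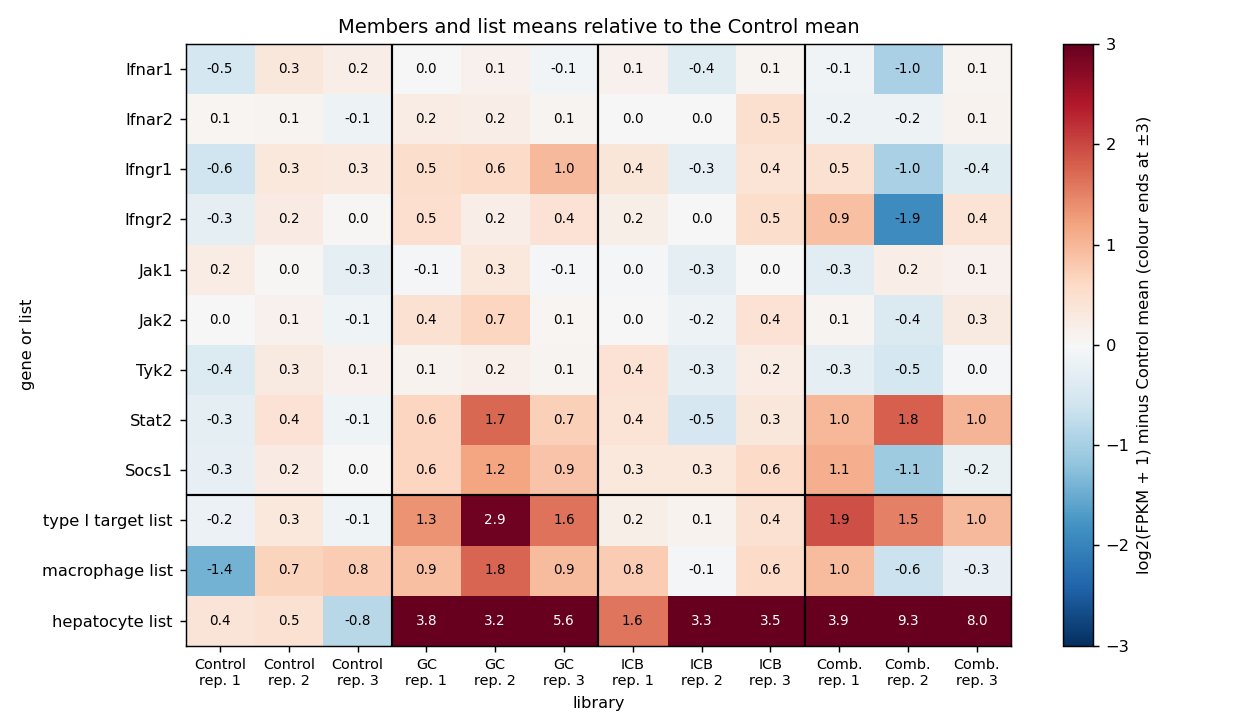
Log2(FPKM + 1) minus the Control mean (colour and printed value) for each member and for the mean of the type I target, macrophage and hepatocyte lists (rows) in the 12 libraries (columns). Stat2 and the type I target list are positive in all GC and Combination libraries, while Socs1 and Ifngr2 are negative in Combination replicate 2. Stat2 is also positive in Control replicate 2 and ICB replicates 1 and 3, and the type I target list in Control replicate 2 and all ICB libraries.

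The direction of several members in Combination against Control depended on replicate 2 or on the scaling. Without replicate 2 the difference was above 0 for Ifngr1, Ifngr2, Jak2 and Socs1 (0.047, 0.66, 0.17 and 0.44) and stayed below 0 for Tyk2 (-0.14) and Ifnar2 (-0.019). Its scaling factor under median-of-ratios scaling was 0.592, against 0.842 to 1.16 in the other libraries, so at equal relative abundance its deposited FPKM are low. After that scaling it stood at 61.0 FPKM for Ifnar2, 38.7 for Jak1 and 25.97 for Stat2, the highest of all libraries for each, and at 31.8 for Ifngr2 and 6.60 for Socs1, the lowest. Scaling moved the median of all genes in this comparison from -0.29 to -0.03. The scaled difference was 0.25 for Ifnar2, 0.0093 for Ifngr1, 0.12 for Ifngr2, 0.24 for Jak2, 0.00891 for Tyk2 and 0.20 for Socs1. For Stat2 it was 1.56 (limma adjusted p = 0.07045).

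**Figure D4:**
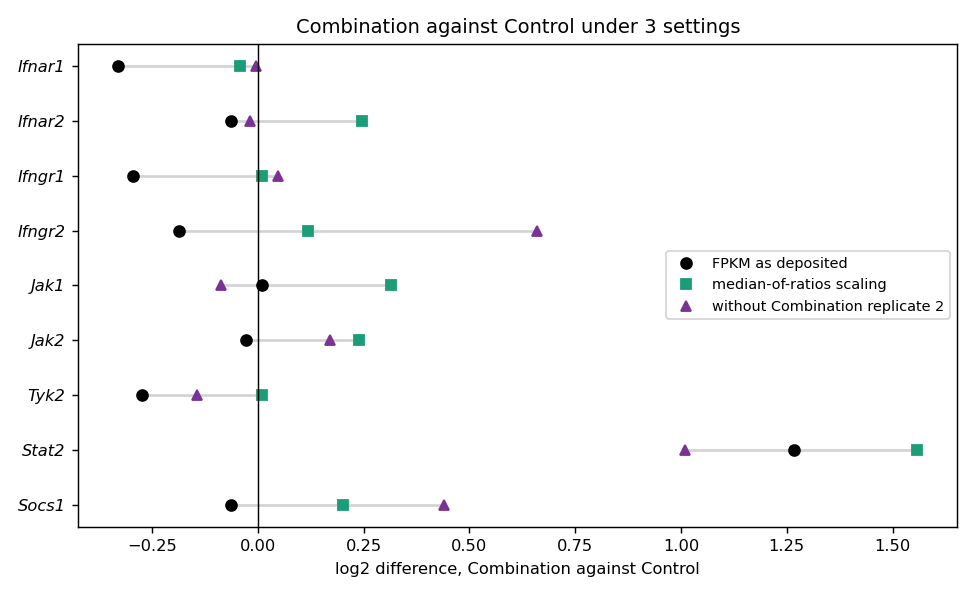
Log2 difference between Combination and Control (x axis) of each member (y axis) with FPKM as deposited (circle), after median-of-ratios scaling (square) and without Combination replicate 2 (triangle). Stat2 stays between 1.01 and 1.56, while Ifngr1, Ifngr2, Jak2 and Socs1 lie below 0 as deposited and above 0 in both other settings.

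The ligands of these receptors were listed at low values. Of 21 interferon genes listed, 0 reached a mean of 1 FPKM, and Ifna2, Ifna7, Ifna11, Ifna14, Ifnl2 and Ifnl3 were listed at 0 in all 12 libraries. The highest was Ifne, an interferon of epithelia, at 1.39, 0.192 and 0 FPKM in Control, 0.0874, 0 and 0.0981 FPKM in GC, 0.818, 1.02 and 0.545 FPKM in ICB, and 0, 0 and 0.290 FPKM in Combination. All 3 ICB libraries were thus above all GC and Combination libraries for Ifne, while Control spanned both. Ifnb1, the interferon beta gene, was listed above 0 in Control replicate 3 (0.0640 FPKM), GC replicates 2 and 3 (0.0987 and 0.165 FPKM), ICB replicate 3 and Combination replicate 1. Ifna13 was listed at 0.283, 0.0928 and 0.0796 FPKM in GC and 0.265 FPKM in Combination replicate 3, and at 0 in the other 8 libraries. Ifng was listed at 0.246 FPKM in Control replicate 2, at 0.117 FPKM in Combination replicate 2 and at 0 elsewhere.

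Other parts of the pathway were counted from lists. Among 13 further receptors, kinases, STATs and partners, 11 were tested and 0 passed in any comparison. Without Combination replicate 1, 2 were called higher and 1 lower in Combination against Control (24.8% of all genes) and 1 lower against GC (23.6%). In that setting 2 were lower against ICB (16.1%), and 1 higher and 2 lower in the averaged contrast (13.6%). Without Combination replicate 3, 1 was called lower in Combination against Control (2.6%), against ICB (2.09%) and in the averaged contrast (2.91%). In that contrast 1 was also lower without replicate 2 (3.23%). Scaling gave 1 lower in Combination against ICB (1.75%) and in the averaged contrast (3.02%). At an unadjusted p under 0.05, 2 were higher and 0 lower in GC against Control (9.86% of all genes in either direction). They were 0 and 0 in ICB against Control (1.75%), and 3 and 3 in Combination against Control (26.3%). Irf9, the DNA-binding partner of STAT2, stood at 6.45 ± 1.08 FPKM in Control, 11.8 ± 4.82 in GC, 6.03 ± 1.36 in ICB and 11.2 ± 1.69 in Combination, with 0.77 ± 0.20 for chemotherapy averaged over blockade (limma adjusted p = 0.06411). Jak3, a kinase of lymphocyte cytokine receptors, averaged 25.9 ± 3.58 FPKM in Control libraries and 12.3 ± 7.48 FPKM in Combination libraries (-1.18 ± 0.37, limma adjusted p = 0.09283). Gnb2l1, which encodes the ribosomal scaffold protein RACK1, differed by -1.71 ± 0.48 in Combination against Control (adjusted p = 0.07254).

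Among 18 other negative regulators, 1 was called higher in Combination against Control (3.55% of all genes) and 1 in Combination against ICB (2.05%). In the contrast averaged over blockade 3 were called higher (3.01% of all genes). In these comparisons 0 were called lower, and 0 passed in GC or ICB against Control or in Combination against GC. At an unadjusted p under 0.05, 5 were higher in GC against Control (9.86% of all genes in either direction) and 0 in ICB against Control (1.75%). Combination had 3 higher and 2 lower against Control (26.3%) and also against ICB (20.5%), and 2 lower against GC (16.5%). Under median-of-ratios scaling 3 rose in Combination against Control (3.76% of all genes). Without Combination replicate 1, 2 were called higher in GC against Control (1.43%) and 2 lower in Combination against GC (23.6%). In that setting 1 was lower in each of Combination against Control (24.8%), Combination against ICB (16.1%), the interaction (6.36%) and the averaged contrast (13.6%). Socs2, a SOCS family inhibitor of growth hormone signalling, stood at 3.93, 5.69 and 4.61 FPKM in Control, 11.4, 17.5 and 12.8 FPKM in GC, 5.86, 4.84 and 7.02 FPKM in ICB, and 18.02, 15.4 and 13.6 FPKM in Combination. All libraries with chemotherapy lay above all without it, and it rose by 1.54 ± 0.23 in Combination against Control (limma adjusted p = 0.003758) and by 1.27 ± 0.23 in Combination against ICB (adjusted p = 0.01704). Each library left out in turn, the first call stood 12 times of 12 (adjusted p up to 0.02298) and the second 10 times, missing the threshold without ICB replicate 1 or 2 (up to 0.08931). The other 2 that rose in the averaged contrast were Usp18, which blocks IFNAR2 and is itself a type I target (1.90 ± 0.34, limma adjusted p = 0.01424), and Cish, a SOCS family member induced by STAT5 (1.22 ± 0.26, adjusted p = 0.03108). Usp18 passed without each of the 12 libraries and Cish without 5 of them, with adjusted p up to 0.08932 without ICB replicate 1. Socs3, induced by interleukin signals, averaged 42.7 ± 7.82 FPKM in Control libraries and 26.6 ± 16.3 FPKM in Combination libraries, with 7.84 FPKM in Combination replicate 2.

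Type I target genes were mostly higher with chemotherapy. Of 18 tested type I targets, all 18 estimates were positive in GC against Control (median 2.04, all genes 0.09). Of these targets 17 had an unadjusted p under 0.05 (9.86% of all genes) and 0 passed. Without Combination replicate 1, which is not in that comparison but adds to the shared spread, 9 of 18 passed (1.43% of all genes), and without GC replicate 2 the median was 1.37. In Combination against Control 5 of 18 rose and 0 fell, beside 3.55% and 0.400% of all genes. The median was 1.33 (all genes -0.29). The 5 were Rtp4 (2.17 ± 0.43, limma adjusted p = 0.01804), Irf7 (2.95 ± 0.63, adjusted p = 0.02424), Bst2, Ifit3 and Oasl1. Without the intestine-rich Combination replicate 1 the count was 9 of 18 (24.8% of all genes) and without the liver-rich replicate 2 it was 0 of 18 (2.09%), with medians of 1.30 and 1.49. It was also 0 of 18 without Control replicate 1 or without Control replicate 3, 2 of 18 without Control replicate 2, GC replicate 3, ICB replicate 1 or ICB replicate 2, 3 of 18 without ICB replicate 3, and 8 of 18 under median-of-ratios scaling. Rtp4 and Irf7 also missed the threshold without Control replicate 1 or 3, with adjusted p up to 0.07271 and 0.1055. In the averaged contrast 11 of 18 rose and 0 fell, beside 3.01% and 0.353% of all genes. With each library left out in turn 7 to 14 rose, fewest without ICB replicate 2. In Combination against ICB, where 2.05% of all genes were higher, Irf7 alone rose (limma adjusted p = 0.04452, up to 0.1827 without ICB replicate 2). In ICB against Control the median was 0.26 (all genes -0.06). The mean log2(FPKM + 1) of these targets lay between 0.955 and 1.45 in the Control libraries and between 1.25 and 1.59 with blockade alone. With GC it lay between 2.49 and 4.06 and with the Combination between 2.12 and 3.08, so that, as for Stat2, libraries with chemotherapy did not overlap those without. Of 15 tested type II targets 0 passed in any comparison with Control, with medians of 1.28 in GC, 0.33 in ICB and 1.15 in Combination. In the same order 11, 1 and 10 had an unadjusted p under 0.05, beside 9.86%, 1.75% and 26.3% of all genes. In the averaged contrast 3 of the type II targets rose (Gbp3, Irgm1 and Cxcl10), beside 3.01% of all genes. The count was 7 without Combination replicate 1 (13.6% of all genes in either direction) and 1 without replicate 2 (3.23%). In Combination against Control 5 passed without replicate 1 (24.8% of all genes) and 4 with the replicate number as a block (4.23%). Of the type I targets with a promoter window 7 of 15 held the ISRE core, and of the type II targets 6 of 13. The target lists were chosen with earlier results of these data known, and the macrophage and hepatocyte lists were also higher in all GC libraries than in all Control libraries, a part that was not tested.

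The members did not vary as a single group. Over 12 libraries that share tissue content and scaling, 27 of 36 pairs had a positive Pearson correlation of log2(FPKM + 1), from -0.4 to 0.879 with a median of 0.43. Ifnar1 and Tyk2, a receptor chain and its kinase, gave 0.879, Ifngr1 and Socs1 0.87, Ifngr2 and Socs1 0.81, and Stat2 and Socs1 0.0329. Among 8748 named genes whose mean reached 5 FPKM, those most like Stat2 were Gas6 (Pearson 0.964, 0.986 within groups) and Cbr4 (0.963, 0.922 within groups), and those most like Socs1 were Clta (0.962) and Znrd1 (0.962). Ifngr1 was most like Haus8 (0.965) and Csf2ra, a myeloid growth factor receptor chain (0.964), Ifngr2 like Ripk2 (0.973) and Itgb1 (0.972), Ifnar1 like Slc30a7 (0.966) and Adam10 (0.961), and Tyk2 like Spag9 (0.951) and Atp9b (0.947). The closest matches were lower for Jak2 (Usp12 0.922, Rnf149 0.906), Jak1 (Nr3c1 0.903, Hipk3 0.86) and Ifnar2 (Bgn 0.851, Zfp949 0.834). These values describe the 12 libraries and carry no test.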

How the data were processed

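Per the labels' protocols, Qiagen kits were used to isolate total RNA from the 12 tumours and to build strand-specific libraries. The authors deposited 1 FPKM value for each gene symbol in each sample. The submitters' processing notes name mm10 and, as tools, HISAT2, HTSeq, SAMtools, cutadapt and FastQC. Versions, the step that made FPKM and the use of strand in counting are not given in the sources used here. Whole reads could not be recovered: among values up to 0.1 FPKM, no bin of the between-library ratio held over 17.3% of genes in any of 66 library pairs. Depth is thus unknown, and no test on reads was run.

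Samples were grouped and numbered by their titles. In R 4.3.3 with limma 3.58.1, log2(FPKM + 1) of 12765 genes (mean of at least 1 FPKM) was fitted by group means over all 12 libraries (8 residual degrees of freedom), with an intensity trend and adjustment over all genes. Intervals use the moderated degrees of freedom. Alternatives were a pseudocount of 0.1, no filter (18672 genes), a floor of 10 FPKM (6433 genes), median-of-ratios scaling, a replicate block, the hepatocyte list mean as covariate, only the groups compared, and each library left out. The contrast averaged over blockade and the fit without Combination libraries were added after seeing the data. Tested on simulated data of 12765 genes for GC against Control, limma recovered 26% of 2-fold, 74% of 4-fold, 98% of 8-fold and 94% of 16-fold changes, with 13 unchanged genes called. Members and lists were chosen with earlier results of these data known. Named were all members, up to 4 called genes or the 2 of smallest p per list, and the 2 most alike genes per member. Not every gene taken by this rule is reported here. Promoter windows came from RefSeq (GRCm38.p6), gene locations from GENCODE M21.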

Additional observations from a re-analysis of the deposited data

How the results depend on the processing

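Over all alternatives, member differences kept their direction and side of the threshold 935 times, reversed 78 times, lost a call 15 times and gained one 6 times. Many could not reverse, since the replicate block, or leaving out a library of a group not compared, leaves a difference as it was. The only member call to lose was that of Stat2 in the averaged contrast, and all 15 losses were of it. The tally is thus no measure of stability. The cause of the changes was not tested, except that leaving out libraries or groups also leaves fewer samples. Genes called in GC against Control numbered 3 with no filter, with a floor of 10 FPKM, with the replicate block or with only the groups compared, 0 under median-of-ratios scaling, 460 with the hepatocyte covariate and 297 in a fit without Combination libraries. In Combination against Control they numbered 268 with the floor of 10 FPKM, 207 with the covariate and 94 with only the groups compared. In Combination against GC they numbered 16 with a pseudocount of 0.1, 3 with the floor or with only the groups compared, 48 under scaling and 53 with the replicate block. In Combination against ICB they numbered 84 with the floor and 27 with only the groups compared. The interaction gave 0 with the pseudocount of 0.1, the floor or the block, 7 with no filter and 107 with the covariate. With the floor the averaged contrast gave 146 and the F test 69, and the covariate gave 141 for the F test. Members called became 1 in GC against Control with the covariate (Socs1), and 0 in the averaged contrast with no filter, the floor (where Stat2 was not tested), scaling, the replicate block or the covariate. Replicate numbers, taken from the titles, were shared across groups, but the column names of the deposited values number some libraries otherwise. Same-numbered libraries correlated from -0.236 to 0.416 in their deviations (8 of 18 pairs over 0.1), and 6 of 12 correlated best with their own number. Libraries of different number correlated from -0.445 to 0.431 (13 of 36 pairs over 0.1). Whether libraries were paired in some other way cannot be read from these numbers. The replicate block changed no other member's call. Because every group holds the same replicate numbers, the block cannot alter a difference, only its SE. The kept direction of all 55 member differences was therefore fixed in advance.

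With each library left out in turn, genes called ran from 0 to 183 in GC against Control, 219 to 3167 in Combination against Control, 24 to 3014 in Combination against GC, 108 to 2050 in Combination against ICB, 0 to 812 in the interaction, 162 to 1737 in the averaged contrast and 131 to 1806 in the F test, in each case highest without Combination replicate 1. Members called ran from 0 to 2 in Combination against GC and from 0 to 1 in Combination against Control, Combination against ICB, the interaction, the averaged contrast and the F test. Stat2 passed in Combination against Control without Combination replicate 1 (limma adjusted p = 0.04386, with 24.8% of all genes).

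Under scaling these differences reversed: Ifnar1 -0.047 and Jak1 -0.0034 in GC against Control, Ifnar1 0.067 and Jak1 0.018 in ICB against Control, Ifnar2 0.25, Ifngr1 0.0093, Ifngr2 0.12, Jak2 0.24, Tyk2 0.0089 and Socs1 0.20 in Combination against Control, Ifnar1 0.0057, Ifnar2 0.16 and Jak1 0.32 in Combination against GC, and Jak2 0.027 in Combination against ICB. With the hepatocyte covariate they were Jak1 -0.19 in GC and Ifnar1 0.26 in ICB against Control, Ifnar1 0.47, Ifngr1 0.98, Ifngr2 1.83, Jak1 -0.43, Jak2 0.38, Tyk2 0.083 and Socs1 1.89 in Combination against Control, Ifngr2 0.26 in Combination against GC, and Ifnar1 0.21, Ifngr1 0.31, Ifngr2 0.79, Jak1 -0.15, Jak2 0.12 and Socs1 0.72 in Combination against ICB. With a library left out, ranges that crossed 0 in GC against Control were Ifnar1 -0.25 to 0.19, Jak1 -0.066 to 0.18 and Tyk2 -0.092 to 0.24. In ICB against Control they were Ifnar1 -0.33 to 0.11, Ifnar2 -0.00090 to 0.25, Ifngr1 -0.14 to 0.39, Jak1 -0.24 to 0.0020, Jak2 -0.073 to 0.22, Tyk2 -0.077 to 0.33 and Stat2 -0.084 to 0.37. In Combination against Control they were Ifngr1 -0.67 to 0.047, Ifngr2 -0.73 to 0.66, Jak1 -0.12 to 0.17, Jak2 -0.18 to 0.17 and Socs1 -0.65 to 0.44. In Combination against GC they were Ifngr2 -1.11 to 0.28, Jak1 -0.15 to 0.10 and Stat2 -0.0097 to 0.60, and in Combination against ICB Ifnar1 -0.48 to 0.055, Ifngr2 -0.97 to 0.43, Jak2 -0.27 to 0.074 and Socs1 -1.04 to 0.044. In the interaction they were Ifnar1 -0.50 to 0.035, Ifngr2 -1.35 to 0.047, Jak1 -0.060 to 0.21 and Stat2 -0.12 to 0.52.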
